A study of Mus musculus with 27 samples.

Results

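The 10 genes described here, Adgre1, C1qa, C1qb, C1qc, Csf1r, Mrc1, Cx3cr1, Pf4, Spi1 and Cd68, are known marks of embryonic macrophages and platelets. They were taken by symbol after the gene IDs of all 27 count tables had been matched, without version, to GENCODE M21, and they are 10 of 51826 gene IDs. Mouse embryonic stem cells of the E14 background were sampled at 3 times of embryoid body differentiation, labelled 0, 3 and 10 and read here as days, since the sample labels print no unit. The 3 lines were wild type, a Quaking knockout and a line labelled as a Sam68 knockout, each with 3 biological replicates per time, and RNA was depleted of ribosomal RNA before sequencing. Quaking and Sam68 are RNA-binding proteins of the STAR family, encoded by Qk and Khdrbs1. The sources used here name 1 line per knockout and no clone, so a line cannot be told apart from its genotype. No cells were sorted, so every level below is that of a whole culture. In such bulk samples, fewer cells of a type and less RNA per cell cannot be told apart.

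Depth was 56.5 to 77.3 M counted reads per library, where M stands for 1000000 reads. Transcripts of Qk were fewer in the Quaking knockout at every time, by 0.58, 0.95 and 0.41 on the log2 scale at days 0, 3 and 10 (decreases with edgeR adjusted p of 1.85e-09, 2.79e-09 and 0.00232). Khdrbs1 was not lost in the libraries labelled Sam68 knockout: it was at 96.0 ± 3.56 counts per 1000000 reads of the library (CPM) against 89.7 ± 2.29 CPM in wild type at day 0, and at 101 ± 1.87 against 126 ± 31.2 CPM at day 10 (SD, n = 3). At day 3 it was lower there, at 103 ± 6.95 against 158 ± 8.39 CPM (log2 -0.70 ± 0.06 SE, edgeR adjusted p = 1.15e-07). The counts therefore do not check that label, and these libraries are called Sam68-labelled throughout. They also carry a separate range of library numbers from the other 18 libraries, and the label and that numbering cannot be told apart in any comparison below. Wild type and Quaking knockout share 1 range of numbers.

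Macrophages appear in the embryo before any blood stem cell, from progenitors of the yolk sac, and they seed the tissues, where they clear dead cells. Their formation needs the transcription factor PU.1, the product of Spi1, and their survival needs the growth factor receptor encoded by Csf1r, which binds the products of Csf1 and Il34. Adgre1 encodes the surface protein F4/80, Cx3cr1 the receptor for the chemokine fractalkine, Mrc1 the mannose receptor CD206 and Cd68 a glycoprotein of lysosomes. C1qa, C1qb and C1qc encode the chains that assemble into C1q, which starts the classical complement pathway and is made in large part by macrophages. Pf4 encodes platelet factor 4, a chemokine stored in the granules of megakaryocytes and platelets, and its transcript is also found in embryonic macrophages.

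The promoters of 4 of these genes are shown because they hold a run of letters that PU.1, itself encoded by one of the 10 genes, is known to bind. RefSeq promoter sequences (GRCm38.p6) were examined for 6 of the 10 genes. Those of the other 4 genes were not examined, so the count below holds for these 6 alone. The letters AGGAAGT, or ACTTCCT on the other strand, stood in the 250 bases before the start in 4 of the 6. Of 32851 mouse promoters of the same length, 7.69% held these letters. The letters were chosen after the sequences had been seen. In the lines below each gene's own strand runs 5′ to 3′ and capitals mark the match. Only bases before every annotated start are printed.
C1qb: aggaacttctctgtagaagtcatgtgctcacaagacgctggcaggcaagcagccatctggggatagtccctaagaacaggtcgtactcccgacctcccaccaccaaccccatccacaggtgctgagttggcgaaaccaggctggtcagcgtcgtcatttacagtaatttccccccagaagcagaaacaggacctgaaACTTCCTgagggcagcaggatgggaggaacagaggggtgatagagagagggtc
C1qc: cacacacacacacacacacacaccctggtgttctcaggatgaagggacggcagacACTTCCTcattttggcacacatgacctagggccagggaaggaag
Mrc1: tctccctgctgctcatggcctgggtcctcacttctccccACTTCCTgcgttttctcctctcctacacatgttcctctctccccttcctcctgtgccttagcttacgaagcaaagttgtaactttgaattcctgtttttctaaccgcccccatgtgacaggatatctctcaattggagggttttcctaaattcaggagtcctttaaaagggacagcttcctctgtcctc
Pf4: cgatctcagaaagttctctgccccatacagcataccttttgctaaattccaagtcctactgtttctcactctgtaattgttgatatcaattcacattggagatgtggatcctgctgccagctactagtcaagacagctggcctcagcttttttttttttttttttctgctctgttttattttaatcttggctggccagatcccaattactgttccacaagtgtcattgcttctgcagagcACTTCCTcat
These are chr4:136886201-136886450 for C1qb, chr4:136893066-136893164 for C1qc, chr2:14229164-14229391 for Mrc1 and chr5:90772185-90772434 for Pf4. The match ended 4 bases before the RefSeq start of Pf4, 47 bases before that of C1qb, 189 before that of C1qc and 205 before that of Mrc1. In C1qc and Pf4 it was part of the longer run GAGGAAGT, which 2.44% of the 32851 promoters held. The windows of Cd68 and Cx3cr1 held no match. No binding was measured.

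In GRCm38 coordinates of GENCODE M21, the C1q chains lie side by side on the minus strand of chromosome 4, C1qb at chr4:136880129-136886187, C1qc at chr4:136889804-136893065 and C1qa at chr4:136895917-136898803. Adgre1 lies at chr17:57358691-57483527, Csf1r at chr18:61100598-61132149, Mrc1 at chr2:14229392-14332057 and Spi1 at chr2:91082390-91115756, all on the plus strand. Pf4 lies at chr5:90772435-90773383 on the plus strand, Cx3cr1 at chr9:119901616-120069879 and Cd68 at chr11:69664213-69666153 on the minus strand. The exons of 8 of the 10 genes overlap no other annotated gene. Of the exonic bases of Csf1r, 15.1% lie opposite Hmgxb3 on the other strand. Hmgxb3 was at 70.3 ± 2.5 CPM in wild type at day 10, and the strand setting of the counting is not given in the sources used here, so reads of that stretch could belong to either gene. In wild type at day 3 Hmgxb3 was at 99.7 ± 3.67 CPM, while Csf1r was at 0.108 ± 0.017 CPM (SD, n = 3). For Cx3cr1 the overlap with an antisense gene was 1.73% of exonic bases.

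Before day 10 the cultures held almost no reads of 6 of the 10 genes. Over the 18 libraries of days 0 and 3 together there were 4 reads of Adgre1, 4 of C1qa, 3 of C1qb, 4 of C1qc, 4 of Pf4, all in 1 library, and 15 of Cx3cr1. A count of 3 reads, the limit that a count of 0 allows, corresponds to between 0.0388 and 0.0531 CPM in these libraries, counting error only. Csf1r and Spi1 had a few reads in every one of the 18 libraries, at most 19 and 27. Only Mrc1 and Cd68 were well counted from the start, with 3561 and 9637 reads in all.

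At day 10 all 10 genes had 31 or more reads in every library. All 10 were called higher at day 10 than at day 3 within each line, where 39.6% of genes tested were called higher in wild type, 41.1% in the Quaking knockout and 43.5% in the Sam68-labelled line. For the 6 genes near 0 before day 10 this is a description, because they entered those fits through day 10 alone. For the other 4 the size of the rise could be given. The call of Csf1r in wild type and the Quaking knockout is again a description, since it too entered those 2 fits through day 10. Its largest count before day 10 was 13 in wild type and 6 in the Quaking knockout, and its wild type level at day 3 rests on 22 reads. In wild type, Csf1r rose from 0.108 ± 0.017 CPM at day 3 to 85.8 ± 11.9 CPM at day 10 (SD, n = 3), Mrc1 from 1.14 ± 0.118 to 41.7 ± 4.3 CPM and Spi1 from 0.177 ± 0.0651 to 6.6 ± 0.984 CPM. Cd68 rose far less, from 5.13 ± 0.354 to 15.3 ± 2.21 CPM (log2 fold change 1.43 ± 0.11 SE). The rise of Mrc1 was 33.3-fold in wild type, 56.4-fold in the Quaking knockout and 24.9-fold in the Sam68-labelled line, and that of Spi1 33.6-fold, 46.9-fold and 17.3-fold. Differences between the lines in this rise were not tested apart from the comparisons at each day.

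**Figure D1:**
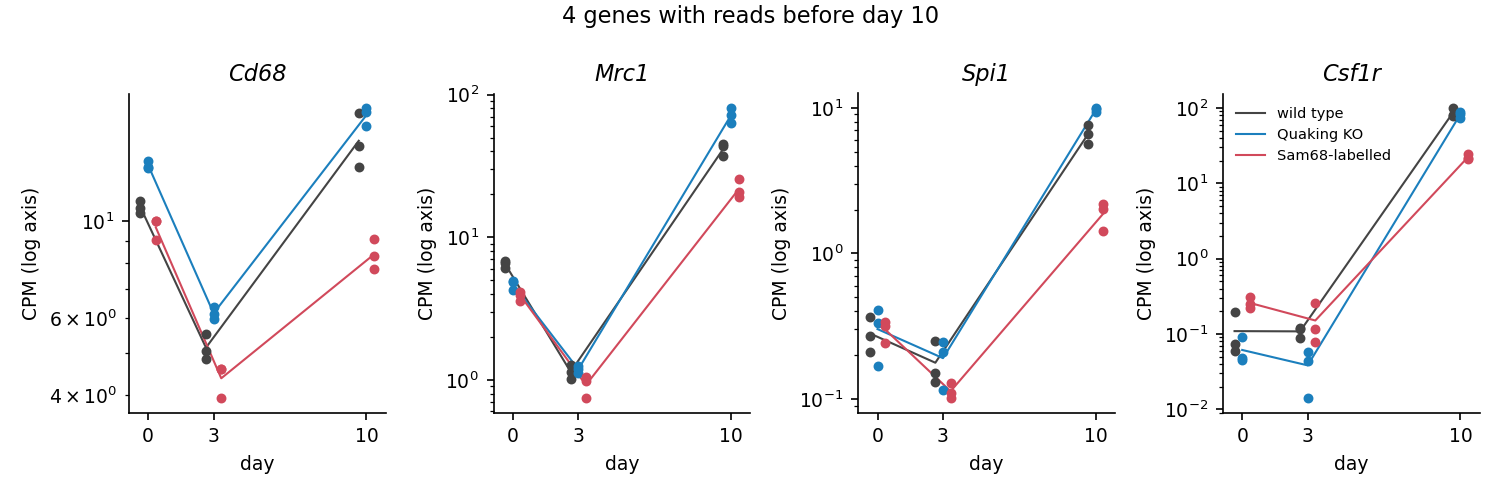
CPM on a log axis against day for the 4 genes with reads before day 10, 1 point per library and 1 line through the means of each cell line (points are shifted sideways so that they do not hide each other). Cd68 and Mrc1 were lower at day 3 than at day 0 in all 3 lines and highest at day 10, except that Cd68 in the Sam68-labelled line was at 8.38 CPM at day 10 and 9.67 CPM at day 0.

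Per kilobase of exon, Pf4 had the highest level of the 10 genes at day 10 in each line, and Spi1 the lowest. In wild type the mean was 65.3 ± 10.1 CPM per kilobase for Pf4 and 39.2 ± 7.97 for C1qb (SD, n = 3), and neither overlapped its neighbours in the order. From Csf1r at 14.9 ± 2.06 through C1qc, Adgre1, Cd68 and C1qa to Cx3cr1 at 9.7 ± 1.9 CPM per kilobase, each gene overlapped the next. Mrc1 followed at 6.55 ± 0.675 and Spi1 at 2.45 ± 0.365 CPM per kilobase. In the Sam68-labelled line Cd68 came next after C1qb, at 6.67 ± 0.523 CPM per kilobase, and overlapped it (6.96 ± 1.15). C1qa was next to last there, at 0.741 ± 0.361 CPM per kilobase, and overlapped Spi1 at 0.697 ± 0.15.

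All 10 genes were lower in the Sam68-labelled line than in wild type at day 10, with no overlap between the groups. The decrease ran from 1.73-fold for Cd68 to 12.5-fold for C1qa, and the median log2 fold change of the 10 was -1.94. Over all genes tested in that comparison the median was -0.04, 27.8% were called lower and 22.8% higher. For the Quaking knockout, 2 of the 10 genes, Mrc1 and Spi1, were called higher than in wild type, 0 were called lower by edgeR (0 at an unadjusted p under 0.05 and 0 by DESeq2) and 8 were not called. There, 4.96% of all genes tested were called higher and 6.71% lower, and the median log2 fold change of the 10 genes was 0.17 against -0.02 for all. Compared directly, all 10 were lower in the Sam68-labelled line than in the Quaking knockout, with no overlap, where 30.7% of genes were called lower. The share of all genes tested without overlap was not counted in either comparison, so the lack of overlap is a description. These 3 comparisons share their groups, so they are not independent of each other.

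**Figure D2:**
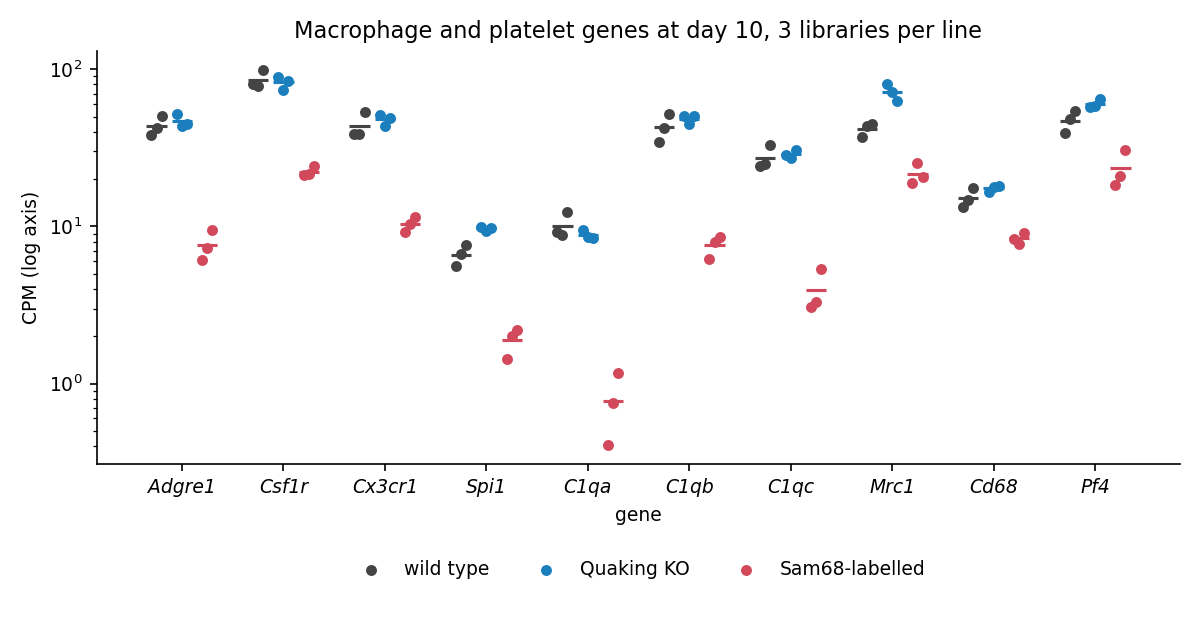
CPM on a log axis for each of the 10 genes at day 10, 1 point per library, with a bar at the mean of each line. Every Sam68-labelled library lies below every wild type and Quaking knockout library for each gene, and the Quaking knockout lies above wild type without overlap for Mrc1, Spi1 and Pf4.

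**Figure D3:**
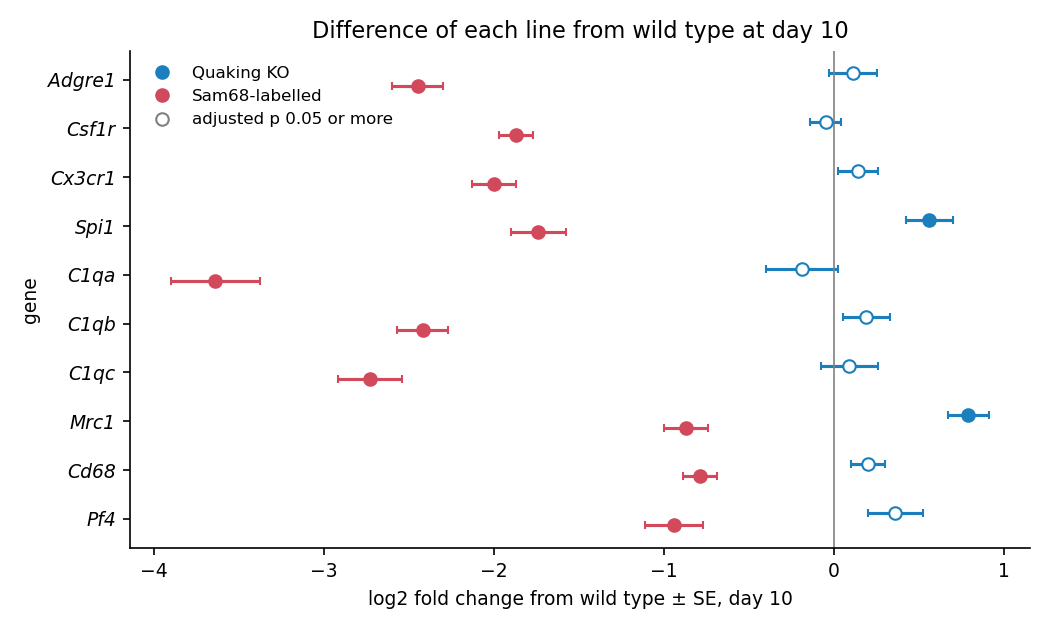
Log2 fold change from wild type at day 10 with its standard error, for the Quaking knockout and the Sam68-labelled line, from 3 libraries per line. Filled points passed an adjusted p of 0.05: all 10 genes in the Sam68-labelled line, and Mrc1 (0.79) and Spi1 (0.56) in the Quaking knockout.

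Spi1, the transcription factor of the set, moved in opposite directions in the 2 altered lines. It was at 5.6, 6.63 and 7.57 CPM in the wild type libraries, at 9.97, 9.36 and 9.79 CPM in the Quaking knockout and at 1.43, 2.01 and 2.2 CPM in the Sam68-labelled line. The 3 lines did not overlap. Against wild type the log2 fold change was 0.56 ± 0.14 (SE) in the Quaking knockout (edgeR adjusted p = 0.027) and -1.74 ± 0.16 in the Sam68-labelled line (adjusted p = 5.27e-06). The call in the Quaking knockout was lost when any of that line's 3 libraries or the second wild type library was left out, with adjusted p from 0.0607 to 0.0753 and log2 fold changes from 0.56 to 0.58.

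Csf1r, which keeps macrophages alive, was at 80.0, 78.0 and 99.6 CPM in wild type, at 89.5, 74.3 and 83.9 CPM in the Quaking knockout and at 21.1, 21.6 and 24.2 CPM in the Sam68-labelled line. Wild type and Quaking knockout overlapped, with a log2 fold change of -0.05 ± 0.09 (edgeR adjusted p = 0.795). The Sam68-labelled libraries were all lower, by 1.87 ± 0.10 on the log2 scale (a decrease with adjusted p = 1.46e-07). Hmgxb3, on the opposite strand, was at 72.6 ± 0.189 CPM there and at 70.3 ± 2.5 CPM in wild type, where its adjusted p was 0.0643.

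Adgre1 was at 37.9, 42.5 and 50.6 CPM in wild type, at 51.8, 43.3 and 45.1 CPM in the Quaking knockout and at 6.1, 7.27 and 9.45 CPM in the Sam68-labelled line. Cx3cr1 was at 38.9, 38.7 and 53.6 CPM, at 51.5, 43.4 and 49.0 CPM and at 9.23, 10.4 and 11.5 CPM in the same order. For both surface receptors wild type and Quaking knockout overlapped and the Sam68-labelled libraries lay apart below them. The log2 fold change of the Sam68-labelled line from wild type was -2.45 ± 0.15 for Adgre1 (edgeR adjusted p = 4.28e-07) and -2.00 ± 0.13 for Cx3cr1 (adjusted p = 5.24e-07). In the Quaking knockout it was 0.11 ± 0.14 for Adgre1 and 0.14 ± 0.12 for Cx3cr1 (adjusted p = 0.689 and 0.51).

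Mrc1, a receptor for sugars on the surface of tissue macrophages, separated all 3 lines. It was at 36.8, 43.6 and 44.8 CPM in wild type, at 80.5, 71.8 and 62.9 CPM in the Quaking knockout and at 19.0, 25.5 and 20.6 CPM in the Sam68-labelled line. Against wild type it was 1.73-fold higher in the Quaking knockout (log2 0.79 ± 0.12, edgeR adjusted p = 0.00256) and 1.83-fold lower in the Sam68-labelled line (log2 -0.87 ± 0.13, adjusted p = 0.000171). Neither call changed under any of 14 alternatives.

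C1qb was at 34.2, 42.2 and 51.6 CPM in wild type, at 50.3, 45.0 and 50.1 CPM in the Quaking knockout and at 6.18, 7.92 and 8.61 CPM in the Sam68-labelled line. For C1qc the values were 24.2, 25 and 32.8 CPM, then 28.5, 27.1 and 30.8 CPM, then 3.09, 3.3 and 5.36 CPM. C1qa was at 9.23, 8.82 and 12.3 CPM in wild type, at 9.5, 8.55 and 8.43 CPM in the Quaking knockout and at 0.406, 0.751 and 1.16 CPM in the Sam68-labelled line. All 3 chains overlapped between wild type and Quaking knockout, and all 3 were far lower in the Sam68-labelled line. The decrease there was 5.36-fold for C1qb, 6.64-fold for C1qc and 12.5-fold for C1qa (log2 -2.42 ± 0.15, -2.73 ± 0.19 and -3.64 ± 0.26, with edgeR adjusted p of 4.41e-07, 8.21e-07 and 1.07e-06).

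The share of C1qa in the C1q reads was lowest in the Sam68-labelled libraries. C1qa took 13.6%, 11.6% and 12.7% of all C1q reads in the wild type libraries and 10.8%, 10.6% and 9.43% in the Quaking knockout. In the Sam68-labelled libraries it took 4.19% (exact 95% binomial interval 2.87 to 5.9, from 31 of 739 reads), 6.27% (4.8 to 8.03) and 7.64% (6.15 to 9.37). The 3 lines did not overlap in this share, but intervals of single libraries did. The second wild type library had 10.8 to 12.5 and the first Quaking knockout library 10.0 to 11.5. The third Quaking knockout library, at 8.72 to 10.2, overlapped the third Sam68-labelled library. The ratio of C1qa to C1qb reads was 0.239 ± 0.0303 in wild type, 0.182 ± 0.0123 in the Quaking knockout and 0.0982 ± 0.0344 in the Sam68-labelled line (SD, n = 3), again without overlap. An exact permutation test of 3 against 3 libraries cannot go below p = 0.1, two-sided, which both differences from wild type reached (0.182 after adjustment over the 20 ratio tests made). The ratio of C1qc to C1qb overlapped in all 3 lines, at 0.645 ± 0.0579, 0.595 ± 0.0249 and 0.513 ± 0.104.

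Cd68, a lysosomal protein made by macrophages and by other cells, was at 13.3, 14.8 and 17.6 CPM in wild type, at 16.5, 17.7 and 18.1 CPM in the Quaking knockout and at 8.3, 7.77 and 9.07 CPM in the Sam68-labelled line. It was the least lowered of the 10 genes in the Sam68-labelled line (log2 -0.79 ± 0.10, edgeR adjusted p = 8.76e-05). In the Quaking knockout the log2 fold change was 0.20 ± 0.10 (adjusted p = 0.247).

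Pf4, the platelet gene, was at 39.5, 48.0 and 53.9 CPM in wild type, at 57.7, 58.7 and 64.4 CPM in the Quaking knockout and at 18.3, 21.0 and 30.8 CPM in the Sam68-labelled line. The lines did not overlap. The Sam68-labelled line was 1.92-fold lower than wild type (log2 -0.94 ± 0.17, edgeR adjusted p = 0.000696), while the log2 fold change of 0.36 ± 0.16 in the Quaking knockout was not called (adjusted p = 0.191).

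Ratios within a library do not depend on its depth. The ratio of Pf4 to Adgre1 reads was 1.08 ± 0.0443 in wild type and 3.05 ± 0.191 in the Sam68-labelled line, without overlap. The ratio of Pf4 to Itga2b, which encodes the platelet integrin alpha IIb, was 0.858 ± 0.162 and 0.928 ± 0.081, and these overlapped. Itga2b was picked from 24 other genes of megakaryocytes and platelets, and no ratio to the rest was computed. In the Sam68-labelled line Ppbp and Treml1 of that list fell more than Pf4, and Zfpm1 rose, as given below. In the Quaking knockout the ratio of Pf4 to Itga2b was 1.1 ± 0.08, above every wild type library. C1qb kept its ratio to Adgre1 within the spread of the libraries, at 0.972 ± 0.0604 in wild type, 1.04 ± 0.0709 in the Quaking knockout and 1.0 ± 0.0894 in the Sam68-labelled line. Mrc1 did not, with 0.961 ± 0.0699, 1.54 ± 0.132 and 2.93 ± 0.682 reads per read of Adgre1. Cd68 stood at 0.349 ± 0.00155 reads per read of Adgre1 in wild type and at 1.13 ± 0.207 in the Sam68-labelled line. The ratios of Csf1r, Spi1 and Cx3cr1 to Adgre1 were also higher there, without overlap. They were 3.0 ± 0.453 against 1.97 ± 0.139 for Csf1r and 0.248 ± 0.0244 against 0.151 ± 0.00426 for Spi1. For Cx3cr1 they were 1.39 ± 0.155 against 0.998 ± 0.0792. Of the genes set against Adgre1, C1qb alone kept its ratio in that line. Each of these non-overlapping ratios has the smallest exact permutation p the design allows, 0.1 (0.182 adjusted over the 20 tests).

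**Figure D4:**
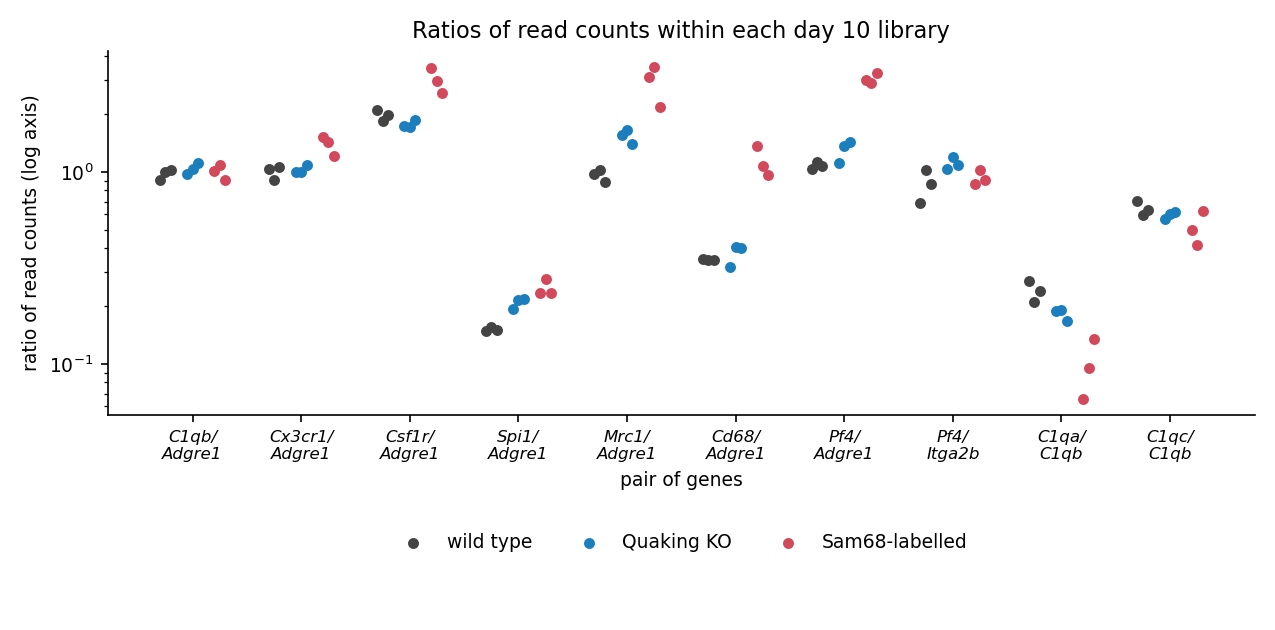
Ratio of read counts of pairs of genes within each day 10 library, on a log axis, 1 point per library. C1qb to Adgre1 overlaps in all 3 lines. The ratios of Cx3cr1, Csf1r, Spi1, Mrc1, Cd68 and Pf4 to Adgre1 are all highest in the Sam68-labelled libraries, and C1qa to C1qb is lowest there.

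At day 0 the cells are undifferentiated stem cells, and 4 of the 10 genes passed the filter on low counts, Cd68, Mrc1, Spi1 and Csf1r. Cd68 was at 10.7, 11.1 and 10.4 CPM in wild type, at 13.2, 13.3 and 13.7 CPM in the Quaking knockout and at 9.99, 9.97 and 9.03 CPM in the Sam68-labelled line. It was higher in the Quaking knockout (log2 0.35 ± 0.05, edgeR adjusted p = 3.23e-05) and lower in the Sam68-labelled line (-0.27 ± 0.06, adjusted p = 0.000267). Mrc1 was at 6.03, 6.55 and 6.83 CPM in wild type, and lower in both other lines, at 4.85, 4.95 and 4.23 CPM in the Quaking knockout and at 4.14, 3.96 and 3.56 CPM in the Sam68-labelled line. Its log2 fold changes were -0.44 ± 0.08 (adjusted p = 0.000262) and -0.86 ± 0.09 (adjusted p = 3.72e-08). At that day 19.4% of all genes were called higher and 20.3% lower in the Quaking knockout, and 36.5% higher and 37.9% lower in the Sam68-labelled line. Mrc1 in the Quaking knockout was therefore below wild type at day 0 and above it at day 10.

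Csf1r at day 0 rested on few reads, 13, 4 and 5 in wild type against 19, 13 and 14 in the Sam68-labelled line. Its log2 fold change of 1.11 ± 0.40 was called with edgeR (adjusted p = 0.0169) and not with DESeq2 (log2 1.10). Csf1r passed the filter at day 0 through the Sam68-labelled libraries, where it was high, so this call is a description. Spi1 did not differ beyond its spread in either line at day 0.

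At day 3 the filter passed 3 of the 10 genes, Cd68, Mrc1 and Spi1. Only Cd68 in the Sam68-labelled line was called, at 4.58, 4.59 and 3.93 CPM against 5.52, 5.04 and 4.83 CPM in wild type (log2 -0.32 ± 0.09, edgeR adjusted p = 0.00561), where 37.1% of all genes were called lower. Of the same 3 genes 0 passed in the Quaking comparison, where edgeR called 7.01% of all genes. The 1 with an unadjusted p under 0.05 was Cd68, at log2 0.29 ± 0.09 (edgeR adjusted p = 0.0632). DESeq2 also called 0 of them, and gave Spi1 no adjusted p. From day 0 to day 3, Mrc1 fell in every line, with log2 fold changes of -2.60 ± 0.13 in wild type, -2.10 ± 0.13 in the Quaking knockout and -2.11 ± 0.17 in the Sam68-labelled line (largest edgeR adjusted p = 7.08e-09). Cd68 fell too, with -1.16 ± 0.12, -1.24 ± 0.07 and -1.18 ± 0.09 in the same order (largest adjusted p = 1.14e-06). In these fits 30.1%, 34.8% and 35.9% of all genes were called lower. Spi1 fell in the Sam68-labelled line, by 1.42 ± 0.36 (adjusted p = 0.00225), and had log2 fold changes of -0.76 ± 0.35 and -0.78 ± 0.34 in wild type and Quaking knockout (adjusted p = 0.0726 and 0.0545). The latter was called by DESeq2 and without the filter on low counts, so Spi1 is not shown to fall in the Sam68-labelled line alone.

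Genes of ligands for 2 of the receptors were called higher in the Sam68-labelled line at day 10, and 1 of these, Csf1, also in the Quaking knockout. Whether ligand levels bear on the receptor genes was not tested. Csf1, the ligand of the Csf1r product, was at 24.1 ± 1.14 CPM in wild type at day 10, at 34.2 ± 5.19 CPM in the Quaking knockout (log2 0.51 ± 0.10, edgeR adjusted p = 0.00689) and at 27.5 ± 2.06 CPM in the Sam68-labelled line (0.26 ± 0.10, adjusted p = 0.0427; the latter call changed under 4 of 14 alternatives). The second ligand, Il34, stayed at 0.215 CPM or less. Cx3cl1, which encodes the ligand of the Cx3cr1 product, rose in the Sam68-labelled line from 7.6 ± 0.126 to 12.5 ± 1.11 CPM (0.79 ± 0.10, adjusted p = 6.56e-05). Ccr2, a chemokine receptor of monocytes, fell in both lines, from 2.87 ± 0.515 CPM to 0.981 ± 0.183 CPM in the Quaking knockout (-1.54 ± 0.19, adjusted p = 0.000759) and to 0.287 ± 0.0559 CPM in the Sam68-labelled line (-3.25 ± 0.22, adjusted p = 8.26e-07). Ccl2, which encodes a ligand of that receptor, rose in the Quaking knockout from 0.605 ± 0.178 to 1.47 ± 0.143 CPM (1.28 ± 0.26, adjusted p = 0.0102). Of 13 growth factor, chemokine and receptor genes tested, 3 were called higher and 1 lower in the Quaking knockout, and 2 higher and 7 lower in the Sam68-labelled line. Over all genes tested, 4.96% were called higher and 6.71% lower in the Quaking knockout. For the Sam68-labelled line these shares were 22.8% and 27.8%, and both pairs apply to every list below.

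Among 17 transcription factors of blood and myeloid cells tested, 12 were lower in the Sam68-labelled line, 1 was higher and the median log2 fold change was -0.83. Ikzf1 and Fli1, which encode factors of blood cell formation, fell there, with log2 fold changes of -1.55 ± 0.12 and -1.5 ± 0.11 (edgeR adjusted p = 1.7e-06 and 1.43e-06). Irf8, a factor of monocytes and macrophages, fell by 0.96 ± 0.10 (adjusted p = 1.64e-05). Runx1, a transcription factor of blood stem cells, had a log2 fold change of -0.30 ± 0.13 and was not called (adjusted p = 0.0738). A single one of the 17 was called in the Quaking knockout, Ikzf1, which was higher by 0.38 ± 0.11 (adjusted p = 0.0495), a call that changed under 10 of 14 alternatives.

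Of 30 other genes of macrophages in general, 27 were lower in the Sam68-labelled line, 2 were higher and the median log2 fold change was -2.06. Ctss, a lysosomal protease of antigen-presenting cells, fell by 4.23 ± 0.27 (edgeR adjusted p = 5.81e-07), from 12.5 ± 2.28 to 0.636 ± 0.357 CPM. Cybb, a subunit of the phagocyte oxidase, fell by 3.70 ± 0.25 (adjusted p = 7.44e-07). The 2 higher genes were Lcp1, which encodes an actin-bundling protein also made outside blood, at 154 ± 6.54 CPM against 96.8 ± 9.47 CPM, and Lyn, a kinase whose log2 fold change was 0.17 ± 0.06 (adjusted p = 0.0458), a call that changed under 9 of 14 alternatives. The summed level of the list was 492 to 591 CPM in wild type and 303 to 321 CPM in the Sam68-labelled line.

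Of these 30 genes, 5 were higher in the Quaking knockout (2 to 9 over the alternatives) and 0 were called lower by edgeR (3 at an unadjusted p under 0.05, 1 by DESeq2), with a median log2 fold change of 0.16. Cd14, a receptor for bacterial lipopolysaccharide, rose from 3.56 ± 0.842 to 6.55 ± 0.696 CPM (log2 0.88 ± 0.16, edgeR adjusted p = 0.00599). Among genes of fetal tissue macrophages outside the brain, 3 of 9 tested were higher in the Quaking knockout and 0 lower (also 0 at an unadjusted p under 0.05 and by DESeq2). Timd4, a receptor for dying cells, rose from 1.46 ± 0.182 to 4.25 ± 0.514 CPM (1.55 ± 0.20, adjusted p = 0.000818), and Lyve1, a receptor for hyaluronan that lymphatic vessels also carry, from 2.49 ± 0.353 to 6.94 ± 0.953 CPM (1.49 ± 0.16, adjusted p = 0.000308). The calls of Cd14, Timd4 and Lyve1 held under all 14 alternatives. Over all genes 4.96% were called higher.

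In the Sam68-labelled line, 6 of the same 9 genes of tissue macrophages were lower and 0 higher (also 0 at an unadjusted p under 0.05 and by DESeq2). Siglec1, a sialic acid receptor, fell by 4.03 ± 0.20 (edgeR adjusted p = 1.25e-07) and F13a1, a clotting factor subunit made by macrophages and megakaryocytes, by 2.72 ± 0.10 (adjusted p = 3.13e-08). Lyve1 was not called there, at -0.14 ± 0.16 (adjusted p = 0.495). Of 8 microglia genes tested, 6 were lower in the Sam68-labelled line and 1 was higher. The higher one was Sall1, which encodes a transcription factor also made by other embryonic cells, at 52.0 ± 3.73 against 38.7 ± 8.74 CPM with overlapping libraries (log2 0.50 ± 0.14, edgeR adjusted p = 0.00996). Among the lower genes was Gpr34, a receptor for a lysophospholipid, at -2.69 ± 0.21 (adjusted p = 1.93e-06). P2ry12, a receptor for ADP, fell by 2.11 ± 0.20 there (adjusted p = 7.09e-06) and by 0.62 ± 0.18 in the Quaking knockout (adjusted p = 0.0486, a call that changed under 7 of 14 alternatives).

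**Figure D5:**
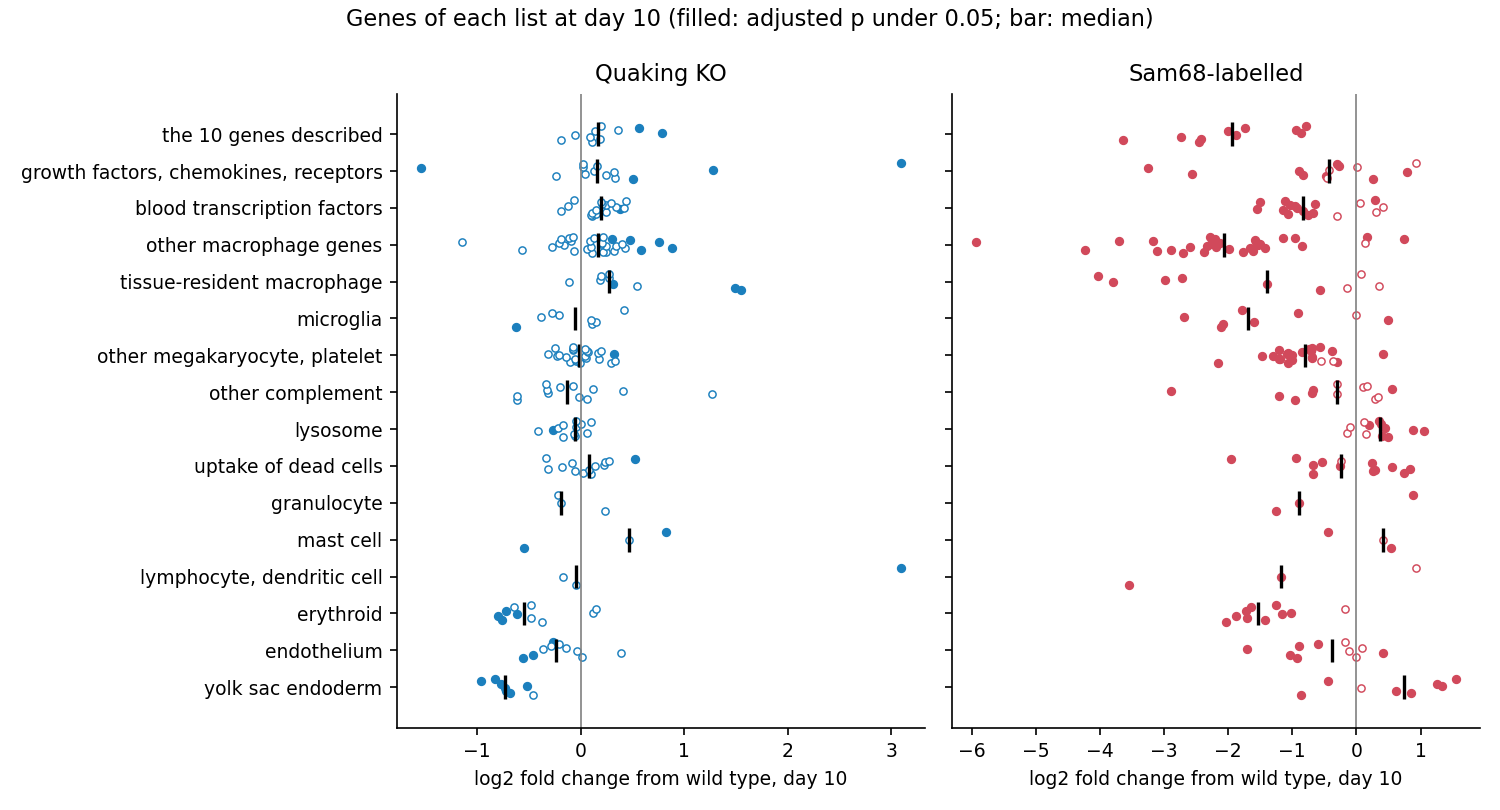
Log2 fold change from wild type at day 10 for the genes tested of each list, 1 point per gene, in the Quaking knockout (left) and the Sam68-labelled line (right), whose horizontal axes differ. Filled points passed an adjusted p of 0.05 and black bars are medians, which in the Sam68-labelled line were -2.06 for the other macrophage genes, -0.79 for the other megakaryocyte and platelet genes and 0.37 for the lysosome.

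Of 24 other genes of megakaryocytes and platelets, 21 were lower in the Sam68-labelled line, with a median log2 fold change of -0.79. Pf4 was at -0.94, and the macrophage genes Mrc1 and Cd68 were as near that median, at -0.87 and -0.79. Ppbp, the gene of a platelet chemokine related to Pf4, fell by 2.16 ± 0.24 (edgeR adjusted p = 2.91e-05) and Treml1, a receptor of platelet granules, by 1.47 ± 0.26 (adjusted p = 0.000713). The summed level was 617 to 784 CPM in wild type, 407 to 541 CPM in the Sam68-labelled line and 642 to 755 CPM in the Quaking knockout. Of the 24, 1 was called in the Quaking knockout, Zfpm1, a partner of GATA factors, higher by 0.32 ± 0.06 (adjusted p = 0.00824). Zfpm1 was also the 1 gene called higher in the Sam68-labelled line (0.41 ± 0.06, adjusted p = 0.00028).

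The other genes of the complement pathway did not follow C1q as closely. In the Sam68-labelled line 5 of 12 tested were lower and 1 higher, with a median log2 fold change of -0.30. Over all genes tested, 27.8% were called lower there and 22.8% higher. C3, the central component, fell by 1.21 ± 0.19 (edgeR adjusted p = 0.000372). Calr, which encodes a chaperone that also binds C1q, rose from 965 ± 152 to 1350 ± 29.5 CPM (0.56 ± 0.11, adjusted p = 0.00115). In the Quaking knockout edgeR called 0 of the 12 (2 were higher and 4 lower at an unadjusted p under 0.05, and DESeq2 called 2 lower).

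Lysosomal genes used by most cells, unlike Cd68, were higher in the Sam68-labelled line, 8 of 12 with 0 lower (also 0 at an unadjusted p under 0.05 and by DESeq2) and a median log2 fold change of 0.37. Ctsl, a cathepsin, rose from 927 ± 142 to 1830 ± 98.5 CPM (1.05 ± 0.13, edgeR adjusted p = 5.07e-05) and Cd63, a membrane protein of lysosomes, from 70.1 ± 2.11 to 122 ± 5.54 CPM (0.88 ± 0.07, adjusted p = 2.94e-06). Of 13 genes for the uptake of dead cells, 6 were higher and 6 lower, where 22.8% and 27.8% of all genes tested were. Mfge8, a bridging protein, rose by 0.84 ± 0.09 (adjusted p = 2.16e-05), while Dock2, a regulator of movement in blood cells, fell by 1.95 ± 0.16 (adjusted p = 3.08e-06).

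Markers of other cell types also differed between the lines, and not always in the direction of the 10 genes. Of 10 erythroid genes, 9 were lower in the Sam68-labelled line, with a summed level of 161 to 233 CPM against 559 to 732 CPM in wild type, and the embryonic globin Hbb-y fell by 2.04 ± 0.21 (edgeR adjusted p = 1.23e-05). For the Quaking knockout, 4 of the 10 were lower and the sum was 401 to 523 CPM. Of 10 endothelial genes, 5 were lower and 1 higher in the Sam68-labelled line, at a summed 288 to 301 CPM against 407 to 433 CPM, and 3 were lower in the Quaking knockout, at 343 to 381 CPM. Of 8 yolk sac endoderm genes, 5 were higher and 2 lower in the Sam68-labelled line (4490 to 5580 against 3090 to 3910 CPM), and 7 were lower in the Quaking knockout (3 to 8 over the alternatives, at 2050 to 2370 CPM). The part of these cell types in the levels of the 10 genes was not tested.

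Other blood cells left few reads. The 10 granulocyte genes summed to 1.78 to 1.96 CPM in wild type, 1.54 to 1.86 CPM in the Quaking knockout and 1.19 to 1.5 CPM in the Sam68-labelled line, with Ctsg, S100a8, S100a9 and Camp at 0 in wild type. For the 10 lymphocyte and dendritic cell genes the sums were 0.791 to 0.911, 1.06 to 1.41 and 0.337 to 0.463 CPM, with Cd3e and Ncr1 at 0 in every line. Of the 8 mast cell genes, Tpsb2 was at 0 in every line, and the sum was made mostly by Kit, which other cells carry too, at 73.2 ± 9.34 CPM in wild type.

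The genes whose pattern over the 9 day 10 libraries was most like the mean of the 10 were Casp1, Themis2, Trem2, Slfn2, Fcgr1, Cd53, AB124611 and Fcrls. Likeness was the mean absolute difference of log2(CPM + 0.5), each gene centred on its own mean, and it ran from 0.0596 for Casp1 to 0.0906 for Fcrls, against a median of 0.876 over 13228 genes. Trem2, which encodes a receptor of macrophages for lipids, was at 7.01 ± 0.818 CPM in wild type, 8.02 ± 1.03 CPM in the Quaking knockout and 1.38 ± 0.333 CPM in the Sam68-labelled line. Of the 10 genes themselves, Cx3cr1 was nearest their mean, at 0.0677, and Cd68 farthest, at 0.481.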

How the data were processed

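RNA was measured in 27 libraries, 3 per line and day, with a stranded total RNA kit and paired reads, per the labels' protocols. The authors deposited raw counts per gene ID. Reads were aligned with STAR 2.5.3a to GRCm38 (mm10), per the submitters' processing notes. The sources used here name no counting tool, strand setting or annotation. Gene IDs were matched without version to GENCODE M21 (99.6% matched).

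Counts were tested with edgeR 4.0.16 (quasi-likelihood, TMM, filterByExpr with a minimum count of 10 and total of 15), 1 fit per day over the 3 lines and 1 per line over the 3 days. P-values were adjusted by Benjamini-Hochberg over all genes tested and called under 0.05. Printed CPM are counts per 1000000 reads of the library total. The code was tested on simulated data with 200 changed genes. Alternatives were RLE scaling, DESeq2 1.42.0, no filter, a replicate block, only the 6 libraries compared, and each library left out. Labels call the replicates biological. Intervals and limits cover counting error only. Ratios were tested by exact permutation (scipy 1.17.1).

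The 10 genes and all 15 other lists were chosen with earlier results of these data known. List genes named have the largest called fold changes per direction, at a mean of 1 CPM or more and without overlap; any growth signal or transcription factor could be named. Genes with the nearest pattern were the 8 closest protein-coding genes. Itga2b, Il34 and Hmgxb3 served ratios, ligands and overlap.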

Additional observations from a re-analysis of the deposited data

Results flagged for a closer look

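Mrc1 moved in opposite directions in the Quaking knockout and the Sam68-labelled line at day 10, each against wild type. The direct contrast of the Sam68-labelled line with the Quaking knockout was -1.66 ± 0.13 on the log2 scale (SE; edgeR adjusted p = 1.22e-06), and every Sam68-labelled library was lower than every Quaking knockout library.

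For Spi1 the contrast was -2.31 ± 0.16 on the log2 scale (edgeR adjusted p = 5.06e-07), again with no overlap between the libraries of the 2 lines. Both comparisons with wild type share the wild type libraries. For Spi1 the higher level in the Quaking knockout passed the threshold only with all libraries of that line and the second wild type library kept in.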

How the results depend on the processing

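Of the 10 genes, all were called lower in the Sam68-labelled line at day 10 under each of 14 alternatives, against wild type and against the Quaking knockout. The Quaking comparison was less stable. Leaving out 1 library gave 1399 to 3139 called genes at day 10 (2392 with all; 1399 without the second Quaking knockout library) and 1 to 2 of the 10 genes; the 1 kept was Mrc1. At day 3 it gave 749 to 1641 called genes (1381 with all; 749 and 801 without wild type library 2 or 3) and 0 to 1 of the 10 genes. It gave 1 to 2 of the 10 genes in the Sam68-labelled comparison at day 3 and 2 to 4 from day 0 to day 3 in the Quaking knockout. With RLE scaling or no filter, 2 of the 10 genes were called in the Sam68-labelled comparison at day 3, Cd68 and Mrc1 (-0.40 and -0.43 for Mrc1).

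The replicate numbers did not pair the libraries in any of the 13 comparisons, since no comparison had all correlations above 0.1. With the replicate block, Pf4 in the Quaking knockout at day 10 was called (log2 0.38) and 1 of the 10 genes, Cd68, was called in the Quaking knockout at day 3 (0.29). So was Spi1 in wild type from day 0 to day 3 (-0.76).

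Directions that turned when 1 library was left out belonged to values that were not called: Csf1r in the Quaking knockout at day 10 (-0.11 to 0.07 over the libraries left out; 0.02 and 0.07 where it turned), Spi1 there at day 3 (-0.11 to 0.46; -0.11 and -0.05) and day 0 (-0.14 to 0.43; -0.14 and -0.04), Spi1 in the Sam68-labelled line at day 0 (-0.21 to 0.19; 0.09 and 0.19) and Csf1r in wild type from day 0 to day 3 (-0.41 to 0.60; 0.60 and 0.04). The call of Csf1r in the Sam68-labelled line at day 0 was lost without its library 1 (0.96) and without wild type library 2 or 3 (0.79 and 0.89). Spi1 from day 0 to day 3 in the Quaking knockout was called by DESeq2 (-0.77) and with no filter (-0.76). The causes were not tested. Few reads limit every value of Csf1r and Spi1 before day 10.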

Other observations

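Gata2 and Kit, genes of blood progenitors and mast cells, went opposite ways in the 2 lines at day 10. Gata2 rose in the Quaking knockout from 4.38 ± 0.191 to 7.69 ± 0.808 CPM (SD, n = 3; log2 0.82 ± 0.13 SE, edgeR adjusted p = 0.00262) and fell to 3.04 ± 0.543 CPM in the Sam68-labelled line (-0.45 ± 0.13, adjusted p = 0.0147). Kit fell from 73.2 ± 9.34 to 49.9 ± 8.61 CPM in the Quaking knockout (-0.55 ± 0.12, adjusted p = 0.0153) and rose to 101 ± 10.4 CPM in the Sam68-labelled line (0.54 ± 0.12, adjusted p = 0.00324). The Kit call in the Quaking knockout changed under 2 of 14 alternatives and the Gata2 call in the Sam68-labelled line under 1. Compared directly, the Sam68-labelled line differed from the Quaking knockout by -1.27 ± 0.13 for Gata2 and by 1.09 ± 0.12 for Kit (adjusted p = 1.15e-05 and 2.24e-05).

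Flt3, a receptor of blood progenitors and dendritic cells, rose in the Quaking knockout at day 10, from 0.0475 ± 0.0317 to 0.418 ± 0.0793 CPM (edgeR adjusted p = 0.000628). The wild type level is near that of 3 reads per library, so no fold is given. At that level Flt3 could not pass the filter on low counts through wild type, and it was high in the Quaking knockout. Its call is therefore a description. In wild type its level had been higher at day 3, at 0.63 CPM. Apoe, which yolk sac endoderm and macrophages both make, rose in the Sam68-labelled line from 1000 ± 132 to 2400 ± 157 CPM (1.33 ± 0.13, adjusted p = 7.94e-06) and fell to 694 ± 84.5 CPM in the Quaking knockout (-0.52 ± 0.12, adjusted p = 0.0212, a call that changed under 3 of 14 alternatives).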
